A study of Mus musculus with 9 samples.

Results

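Of the 10 antioxidant enzyme genes examined here in mouse pancreatic islets, *Prdx4* and *Gpx3* were higher in islets whose beta cells lacked *Raptor*, and the other 8 did not pass the test. *Prdx4*, which encodes the peroxiredoxin of the endoplasmic reticulum, was 1.55-fold higher, and *Gpx3*, which encodes a secreted glutathione peroxidase, was 1.66-fold higher. The other genes were *Gpx1*, *Gpx4*, *Sod1*, *Sod2*, *Cat*, *Txnrd1*, *Hmox1* and *Nqo1*. Both calls depended on the processing, as *Prdx4* passed in 17 and *Gpx3* in 8 of 21 alternative fits. The same fit appears under more than 1 setting among the 21, and both genes passed in it. The *Prdx4* value is that of its brightest probe set, and the mean of all its probe sets differed by -0.28 (log2). Members were found as the probe sets that the platform annotation paired with exactly 1 of these 10 symbols. This gave 24 of 34945 probe sets with 1 gene, 21 of which passed the filter on dim values, and all 10 genes were among the 13644 tested of 18193 genes on the array.

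Islets were from male mice aged 8 weeks. The KO mice (βRapKO) were homozygous for floxed *Raptor* alleles and carried Cre under a rat insulin promoter, and their WT littermates had the same floxed alleles and no Cre. *Raptor* (gene symbol *Rptor*) encodes the scaffold of mTORC1, a kinase complex that links nutrients to growth. The promoter directs deletion to beta cells, so the other cells of an islet keep the gene, and since no mice with Cre and unfloxed alleles were used here, Cre and the deletion cannot be told apart. The paper reports raised fed and short-fasted blood glucose in KO mice before this age, but no significant difference after an overnight fast. Genotype and blood glucose cannot be told apart in these pools either. The Cre mice had a mixed strain background, while the labels give C57BL/6 for all samples. Measurements were made on 5 WT and 4 KO Affymetrix mouse genome arrays, and each held the pooled islet RNA of 5 animals of the same genotype. Values are log2 signals, differences are KO minus WT, and p-values come from limma with Benjamini-Hochberg adjustment over all 13644 genes unless called unadjusted. A gene was called when its adjusted p was below 0.05.

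Antioxidant enzymes work in series and in separate compartments. Superoxide dismutases turn superoxide into hydrogen peroxide, which catalase breaks down in peroxisomes, while glutathione peroxidases and peroxiredoxins reduce peroxides with electrons that come from NADPH by way of glutathione or thioredoxin. Beta cells are known for low levels of catalase and glutathione peroxidase compared with liver, and much of their peroxide arises in mitochondria and during the oxidative folding of proinsulin.

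Of all tested genes, 860 were called, 501 of them higher and 359 lower in KO islets (58.3% higher). With each array centred on its median the split was 167 higher and 311 lower (34.9% higher), so directions of small differences depend on the scaling. The targeted gene was lower, as its brightest probe set read between 9.22 and 9.71 in WT and between 8.48 and 9.21 in KO islets (difference -0.72, adjusted p = 0.0410), whereas its dim probe sets differed by -0.41 and 0.65 (unadjusted p = 0.498 and 0.330). Islet hormones were bright in both groups, with a mean of 15.35 against 15.23 for *Iapp* and 14.15 against 14.10 for *Ins2* (WT against KO). Of 12 tested beta cell markers 6 were called, all lower (2.63% of all tested genes were). The mean of the 12 per array lay between 13.15 and 13.48 in WT and between 12.57 and 12.74 in KO islets. Of 18 stromal markers, genes of connective tissue such as *Dcn* and *Col3a1* and of vessel wall cells, 10 were called, all higher (3.67% of all tested genes were). Among vessel wall genes of the list, *Pdgfrb* was called (0.88, limma adjusted p = 0.0303). *Rgs5* (0.32), *Acta2* (0.34), *Tagln* (0.54) and *Cspg4* (-0.19) were not (limma adjusted p between 0.157 and 0.558). The mean of the 18 markers lay between 8.41 and 9.29 in WT and between 9.64 and 10.17 in KO islets. Means of 16 endothelial markers (8.73 to 9.11 against 9.31 to 9.55), 6 ductal markers (9.40 to 10.04 against 10.28 to 10.66) and 6 Schwann and glial markers (6.12 to 7.21 against 7.57 to 7.85) also did not overlap, while 14 macrophage and leukocyte markers (8.44 to 8.71 against 8.43 to 8.96) and 16 acinar markers (8.50 to 12.26 against 8.29 to 12.38) did. No marker of these lists was at 0 on any array. In such bulk samples, fewer cells of a type and less RNA per cell cannot be told apart.

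Among the 10 antioxidant enzyme genes 2 were called higher (3.67% of all tested genes were), 0 were called lower (2.63% of all) and 8 were not called. By an unadjusted p under 0.05 there were 4, *Gpx1*, *Gpx3*, *Cat* and *Prdx4* (21.8% of all tested genes), and the groups did not overlap for 2, *Gpx3* and *Prdx4* (12.5% of all). All KO arrays were above all WT arrays for these 2 (7.43% of all), and below them for 0 (5.05% of all). In a fit over 26208 single probe sets, 1 of the 21 that passed the filter was called, the brightest of *Prdx4* (2.29% of all). The median difference over the 10 genes was 0.11, against 0.04 over all tested genes. The difference was above 0 for 8 genes and below 0 for 2, but those of *Gpx4*, *Sod2* and *Txnrd1* turned negative when each array was centred on its median, and the count of called members then fell to 0.

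**Figure D1:**
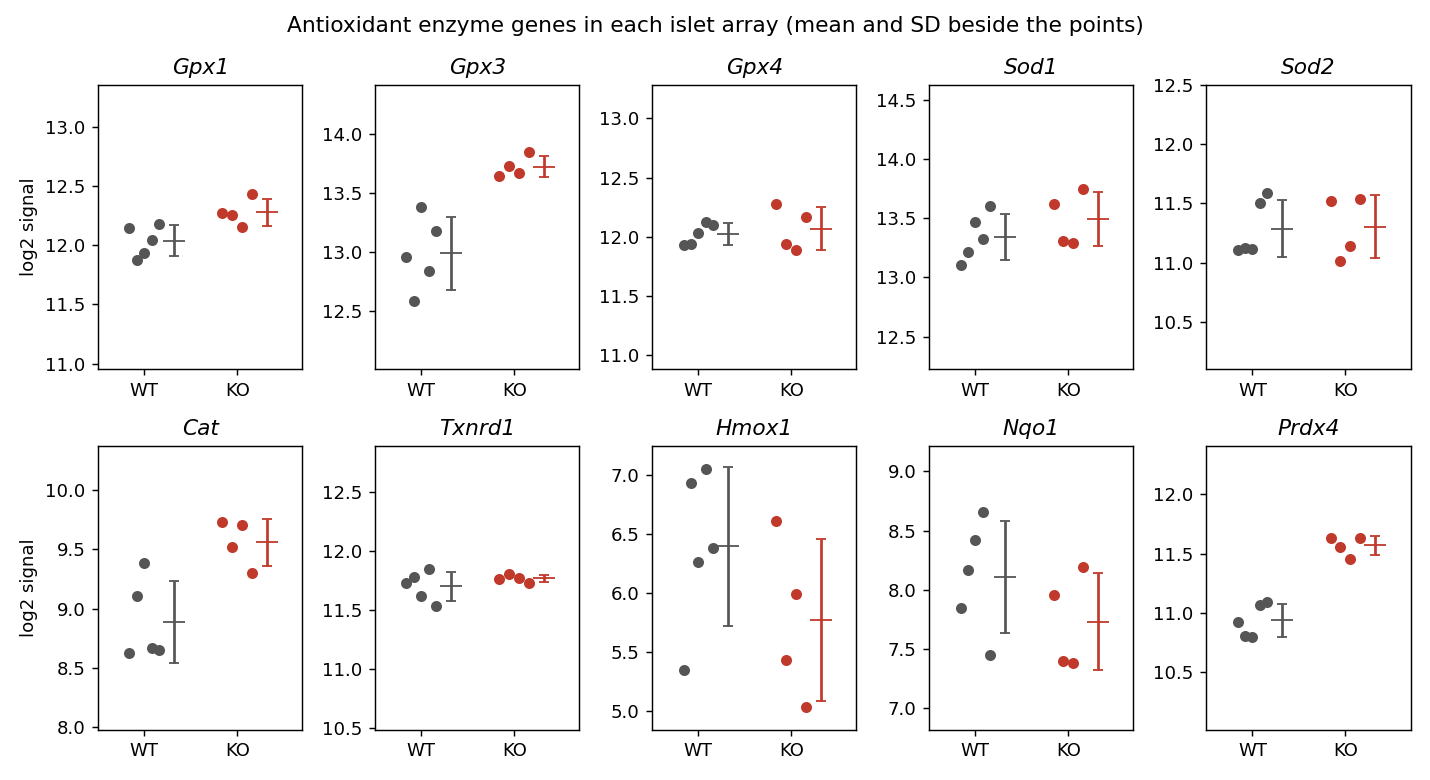
Log2 signal (vertical axes, each spanning 2.4 units) of the probe set that stands for each of the 10 genes, with 1 point for each WT (grey, n = 5) and KO (red, n = 4) array and the mean and SD beside the points. All KO points lie above all WT points for *Gpx3* and *Prdx4*, and the groups overlap for the other 8 genes.

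Promoters are shown for the 3 genes with the largest positive differences, called or not, and for *Txnrd1*, one of the 2 members whose promoter held an antioxidant response element core. They are from RefSeq on GRCm38.p6 and run from 250 bases before to 50 after the annotated start, 5′ to 3′ on the gene's strand. Capitals mark a match on either strand to any of 4 motifs searched, the antioxidant response element core TGACNNNGC, the forkhead motif TGTTTAC, the E-box CACGTG and the GC box GGGCGG. No matches overlap in the 4 sequences. The *Gpx3* promoter lies at chr11:54902604-54902903 (plus strand), *Prdx4* at chrX:155338411-155338710 (minus), *Cat* at chr2:103485104-103485403 (minus) and the second of 3 annotated *Txnrd1* promoters at chr10:82858956-82859255 (plus).
*Gpx3*: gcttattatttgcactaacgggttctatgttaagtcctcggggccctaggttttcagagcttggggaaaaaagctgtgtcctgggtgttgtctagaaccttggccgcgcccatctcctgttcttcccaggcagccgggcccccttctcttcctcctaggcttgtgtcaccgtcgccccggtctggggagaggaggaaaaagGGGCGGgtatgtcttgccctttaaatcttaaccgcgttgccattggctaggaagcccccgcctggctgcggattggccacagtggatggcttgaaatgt
*Prdx4*: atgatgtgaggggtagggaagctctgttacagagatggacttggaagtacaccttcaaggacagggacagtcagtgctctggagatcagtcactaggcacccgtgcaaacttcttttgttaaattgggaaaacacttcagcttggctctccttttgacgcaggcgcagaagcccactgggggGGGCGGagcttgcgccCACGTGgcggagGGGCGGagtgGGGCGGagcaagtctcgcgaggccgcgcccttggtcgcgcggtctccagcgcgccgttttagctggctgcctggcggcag
*Cat*: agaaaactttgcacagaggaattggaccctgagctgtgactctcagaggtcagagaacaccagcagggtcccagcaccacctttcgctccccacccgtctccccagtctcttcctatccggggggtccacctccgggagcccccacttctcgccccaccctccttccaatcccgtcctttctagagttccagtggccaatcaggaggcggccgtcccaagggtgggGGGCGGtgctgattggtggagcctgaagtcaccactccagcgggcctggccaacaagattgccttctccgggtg
*Txnrd1*: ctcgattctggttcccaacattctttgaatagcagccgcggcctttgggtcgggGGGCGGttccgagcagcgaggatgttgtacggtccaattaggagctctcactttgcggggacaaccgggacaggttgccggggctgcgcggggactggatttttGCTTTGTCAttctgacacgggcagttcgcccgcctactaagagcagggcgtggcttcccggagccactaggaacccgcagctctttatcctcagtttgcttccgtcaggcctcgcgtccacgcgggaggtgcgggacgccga

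RefSeq promoters were matched for 9 of the 10 genes, *Hmox1* being the exception, with 14 promoters in all. Sites farther than 250 bases before the start were not searched. The antioxidant response element core, the sequence that NRF2 with a small MAF protein binds, occurred in 2 of these 14 promoters, those of *Sod1* (56 bases before the start) and *Txnrd1* (92 bases before), and in 12.4% of all 32817 promoters of this length. The E-box occurred in 1 of the 14, that of *Prdx4* (52 bases before), and in 7.15% of all. The forkhead motif occurred in 0 of the 14 and 3.65% of all, and the GC box in 11 of the 14 and 35.6% of all. Promoters 2 and 3 of *Gpx4* overlap and their GC boxes are the same bases, so these are counted again in the 11. All matches are of letters and not measured binding.

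GPX1, GPX3 and GPX4 are selenoproteins and differ in where they act. *Gpx3* encodes the extracellular form known from plasma. Its single probe set (1449106_at) read 12.96, 12.58, 13.39, 12.85 and 13.18 in WT against 13.65, 13.73, 13.67 and 13.84 in KO islets. Every KO array was above every WT array, and the KO arrays lay within a narrower range. The means were 12.99 ± 0.31 (SD, n = 5) and 13.72 ± 0.09 (SD, n = 4), a log2 difference of 0.73 ± 0.16 (SE, 95% interval 0.38 to 1.08, limma adjusted p = 0.0297). Of all tested genes, 93.7% had a smaller KO minus WT difference. When arrays were left out singly, 6 of 9 fits lost the call (without WT replicate 1 or 4 or any 1 KO replicate), with adjusted p between 0.0158 and 0.0781 and differences between 0.63 and 0.83 over the 9 fits. With the stromal marker mean as a covariate the difference was 0.13 ± 0.26 (SE, limma adjusted p = 0.876).

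*Gpx1* encodes the abundant peroxidase of the cytosol and mitochondria. Its single probe set (1460671_at) read 12.15, 11.88, 11.93, 12.05 and 12.18 in WT against 12.28, 12.26, 12.16 and 12.43 in KO islets. Only KO replicate 3, at 12.16, lay within the WT range. The difference was 0.24 ± 0.10 (SE, limma adjusted p = 0.193, unadjusted p = 0.0360), with means of 12.04 and 12.28.

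*Gpx4* encodes the enzyme that reduces lipid hydroperoxides in membranes. Its brightest probe set (1451695_a_at) lay between 11.93 and 12.13 in WT and between 11.89 and 12.28 in KO islets, with a difference of 0.04 ± 0.11 (SE, limma adjusted p = 0.861, 95% interval -0.19 to 0.28). The other probe set differed by 0.10. The KO arrays fell on both sides of the WT arrays.

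Because the 3 peroxidases are on the same arrays, the change of one could be set against that of another within each array. This was done for 6 pairs of relatives chosen after their values had been seen, so the values are a description with no test. The signal of *Gpx3* minus that of *Gpx4* was 0.69 larger in KO than in WT islets, and that of *Gpx3* minus *Gpx1* was 0.49 larger. For *Gpx1* minus *Gpx4* the value was 0.20. The KO arrays lay above every WT array for *Gpx3* against *Gpx4*, but not for *Gpx3* against *Gpx1*, where WT replicate 3, with the highest *Gpx3* signal of the WT arrays, reached 1.45 and the KO arrays 1.37 to 1.52.

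*Prdx4* encodes a peroxiredoxin that uses hydrogen peroxide to help form disulfide bonds in the endoplasmic reticulum. Its brightest probe set (1416167_at) read 10.93, 10.81, 10.79, 11.07 and 11.09 in WT against 11.63, 11.56, 11.46 and 11.63 in KO islets. The lowest KO array was above the highest WT array by more than the SD of either group. The means were 10.94 ± 0.14 (SD, n = 5) and 11.57 ± 0.08 (SD, n = 4), a log2 difference of 0.63 ± 0.10 (SE, 95% interval 0.42 to 0.85, limma adjusted p = 0.00739). It was called in each of the 9 fits with an array removed, with adjusted p between 0.0111 and 0.0318. It was lost with the stromal marker mean as a covariate (0.45 ± 0.20 SE, limma adjusted p = 0.387). The part of the stromal and other cell type markers in the *Gpx3* and *Prdx4* differences was not tested beyond these fits, in which the median SE over all genes was 0.309 against 0.153 without the covariate.

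The other *Prdx4* probe sets did not all move with the brightest one. That of the second brightest (1416166_a_at) read between 8.81 and 9.91 in WT and between 9.32 and 10.3 in KO islets, a difference of 0.42 (unadjusted p = 0.161). The next (1435731_x_at), of a type whose probes can match other transcripts, differed by 0.09 (unadjusted p = 0.608). The dimmest (1431269_at), which failed the filter, read 3.22, 4.83, 5.39, 2.04 and 2.46 in WT against 2.35, 0.63, 0.79 and 1.47 in KO islets, a difference of -2.28 (unadjusted p = 0.0157). Its groups overlapped, it was the dimmest of the 24 probe sets, and averaging all 4 probe sets turned the *Prdx4* difference to -0.28 (adjusted p = 0.626).

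Of the other peroxiredoxin genes only *Prdx2* and *Prdx3* were tested here, and neither was called. *Prdx2*, the cytosolic form, differed by 0.05 ± 0.07 (SE, limma adjusted p = 0.777) and *Prdx3*, the mitochondrial form, by 0.10 ± 0.10 (SE, limma adjusted p = 0.650). Within arrays, the difference of the brightest *Prdx4* probe set was 0.58 larger than that of *Prdx2* and 0.54 larger than that of *Prdx3*, a description as for the peroxidases, with no test.

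**Figure D2:**
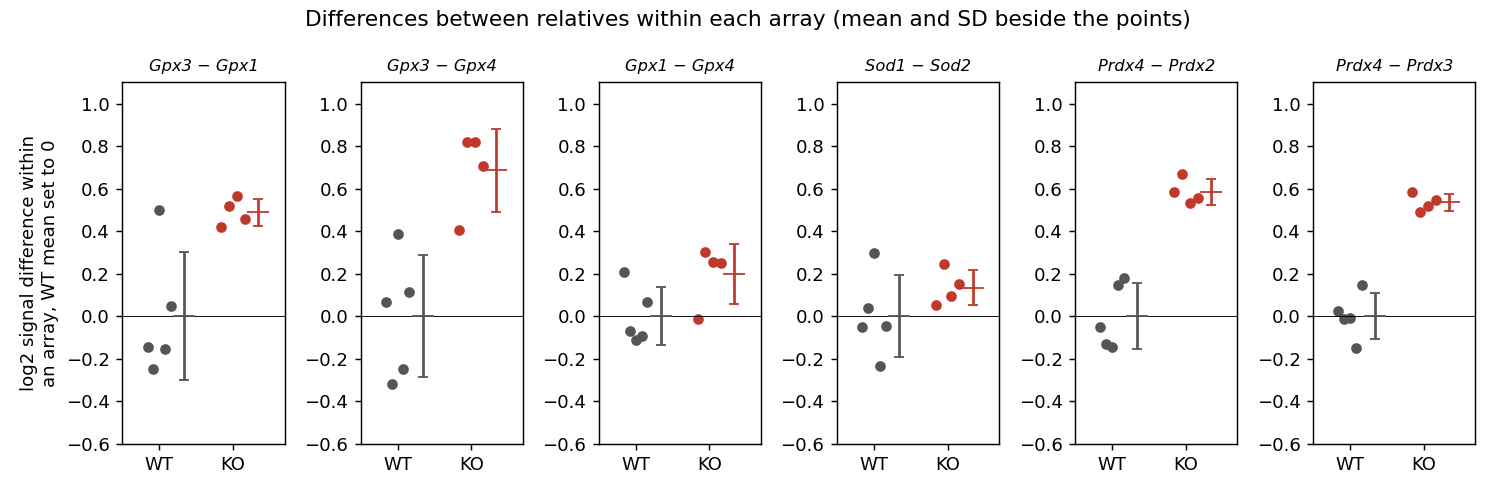
Log2 signal of one gene minus that of a relative on the same array, with the WT mean set to 0 (vertical axis), for 6 pairs, with 1 point per array and mean and SD beside the points (WT grey, n = 5, KO red, n = 4). KO arrays lie 0.58 and 0.54 above the WT mean for *Prdx4* against *Prdx2* and *Prdx3*, and 0.13 above it for *Sod1* against *Sod2*.

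Catalase, encoded by *Cat*, breaks hydrogen peroxide down to water and oxygen. Its brightest probe set (1416430_at) read 8.62, 9.10, 9.39, 8.66 and 8.65 in WT against 9.73, 9.52, 9.70 and 9.30 in KO islets. The groups met only through WT replicate 3 at 9.39 and KO replicate 4 at 9.30. The difference was 0.68 ± 0.18 (SE, 95% interval 0.26 to 1.09, 1.60-fold), with a limma adjusted p of 0.0654. Without WT replicate 3 it was 0.80 and passed (limma adjusted p = 0.0246), and in the other 8 fits with an array removed it did not. The second probe set (1416429_a_at) had overlapping groups, with KO arrays between 8.72 and 9.52 and WT arrays from 8.56 upwards, and means of 8.77 and 9.22 in WT and KO islets (difference 0.45, unadjusted p = 0.0379). Both *Cat* probe sets were thus higher on average, and neither was called.

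Neither superoxide dismutase was called. *Sod1*, the copper and zinc enzyme of the cytosol, lay between 13.11 and 13.60 in WT and between 13.30 and 13.75 in KO islets in its brightest probe set (1451124_at). The difference was 0.15 ± 0.14 (SE, limma adjusted p = 0.594, 95% interval -0.17 to 0.47). Its other 4 probe sets differed by 0.10, 0.14, 0.73 and 0.28, of which the last, from a type that can match transcripts of several genes (1459976_s_at), had an unadjusted p of 0.0361, while the one at 0.73 failed the filter.

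*Sod2*, the manganese enzyme of mitochondria, lay between 11.11 and 11.59 in WT and between 11.01 and 11.54 in KO islets in its brightest probe set (1417193_at). The difference was 0.02 ± 0.16 (SE, limma adjusted p = 0.972, 95% interval -0.35 to 0.38). Its other 3 probe sets differed by -0.06, -0.04 and -0.27 (lowest unadjusted p = 0.0917). Readings of both groups thus covered nearly the same range. Within arrays the difference of *Sod1* was 0.13 larger than that of *Sod2*.

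*Txnrd1* encodes the cytosolic thioredoxin reductase, the selenoenzyme that passes electrons from NADPH to thioredoxin. Its brightest probe set (1421529_a_at) lay between 11.54 and 11.84 in WT and between 11.73 and 11.81 in KO islets. The difference was 0.07 ± 0.09 (SE, limma adjusted p = 0.714, 95% interval -0.13 to 0.26). All 4 KO arrays were inside the WT range. The other 2 probe sets were dim and spread widely, between 2.53 and 7.68 for 1424486_a_at, and differed by 0.22 and -0.17.

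*Hmox1* and *Nqo1* encode heme oxygenase 1 and a quinone reductase, inducible enzymes long used as readouts of NRF2, the main transcription factor of the antioxidant response. *Hmox1* read 5.35, 6.93, 6.26, 7.05 and 6.38 in WT against 6.61, 5.44, 5.99 and 5.04 in KO islets. The difference was -0.62 ± 0.41 (SE, 95% interval -1.54 to 0.30, limma adjusted p = 0.420). *Nqo1* read 7.84, 8.17, 8.42, 8.65 and 7.45 in WT against 7.96, 7.39, 7.38 and 8.19 in KO islets, a difference of -0.38 ± 0.27 (SE, 95% interval -0.99 to 0.24, limma adjusted p = 0.476). Both were lower on average, and the groups overlapped broadly for both. Their pooled SDs of 0.68 and 0.45 were larger than the median of 0.235 over all tested genes, and a difference as large as that of *Prdx4* was within the spread between pools for *Hmox1*.

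**Figure D3:**
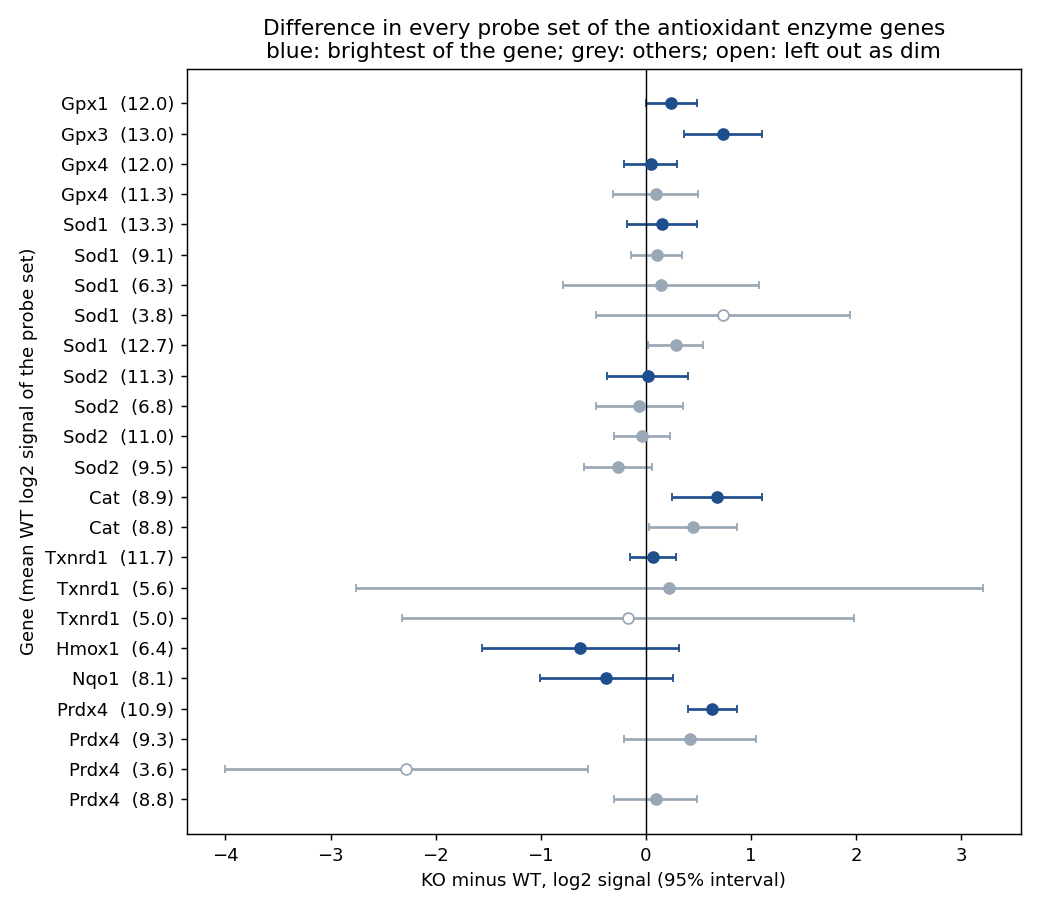
Log2 difference KO minus WT with its 95% interval (horizontal axis) for each of the 24 probe sets of the 10 genes, with the mean WT log2 signal of the probe set in brackets. Blue marks the brightest probe set of a gene, grey the others and open symbols the 3 left out as dim, among them the *Prdx4* probe set at -2.28.

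The wider antioxidant system was read from 11 lists with 188 genes, of which 158 were tested. Of these 8 were called higher and 11 lower (12% called in either direction, against 6.3% of all tested genes), and their median difference was 0.04, as over all genes. With each array centred on its median the split was 4 higher and 11 lower. The other 139 were not called. All 19 called genes kept their sign in every gene-level fit that tested them, but the calls held to different degrees. *Maob* was called in 18 of 19 such fits, *Bach2* in 17 of 18 and *Glrx5* in 17 of 19, against 5 of 19 for *Aox1* and *Idh2*, 6 of 19 for *Selenoo*, 6 of 18 for *Xdh* and 7 of 19 for *Mgst1*.

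On the list of other glutathione peroxidase, superoxide dismutase and peroxiredoxin genes, none was called among 6 tested (6.3% of all tested genes were). Of these 6, 2 had an unadjusted p under 0.05 (21.8% of all). They included *Ccs*, which is not itself a dismutase gene, and no other dismutase gene was tested, as *Sod3* was too dim. The lowest p was that of *Gpx8*, a peroxidase of the endoplasmic reticulum, at 0.76 ± 0.20 (SE, limma adjusted p = 0.0578). *Gpx8* read between 6.63 and 7.47 in WT and between 7.46 and 8.00 in KO islets, and a single KO array lay just inside the WT range.

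In the thioredoxin and glutaredoxin system, 1 of 16 tested genes was higher and 1 was lower (12.5% called, against 6.3% of all tested genes). *Txnip*, which binds and inhibits thioredoxin and is strongly induced by glucose in islets, read 13.49, 13.85, 13.67, 13.59 and 13.23 in WT against 14.54, 14.23, 14.30 and 14.55 in KO islets. The groups were far apart, with a difference of 0.84 ± 0.14 (SE, limma adjusted p = 0.00976, 1.79-fold), and its other probe set differed by 1.39. *Glrx5*, a mitochondrial glutaredoxin for iron-sulfur clusters, was lower by 0.54 (difference -0.54 ± 0.10 SE, limma adjusted p = 0.0139). Among glutathione synthesis and recycling genes 1 of 11 was called (9.09%, against 6.3%), *Cbs* of the transsulfuration pathway (-0.62 ± 0.13 SE, limma adjusted p = 0.0295), and the subunits of the rate-limiting ligase, *Gclc* and *Gclm*, differed by 0.19 and -0.09 (limma adjusted p = 0.635 and 0.788).

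Glutathione S-transferases, which conjugate glutathione to electrophiles, moved both ways, with 2 of 15 higher and 2 lower (26.7% called, against 6.3% of all tested genes). *Gstm2* was 2.31-fold lower (-1.21 ± 0.25 SE, limma adjusted p = 0.0254) and *Gstk1* was 1.52-fold lower (-0.61 ± 0.12 SE, limma adjusted p = 0.0194). *Mgst1*, a membrane-bound transferase, was 1.92-fold higher (0.94 ± 0.20 SE, limma adjusted p = 0.0292) and *Gstp1* 1.45-fold higher (0.54 ± 0.10 SE, limma adjusted p = 0.0179). Genes of this family have near-identical copies, so signals of *Gstp1* and *Gstm2* may include those of relatives. Among 12 genes of NADPH supply 1 was called (8.33%, against 6.3%). This was *Idh2*, the mitochondrial isocitrate dehydrogenase, which was lower (-0.48 ± 0.12 SE, limma adjusted p = 0.0478).

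Of 25 tested genes of the NRF2 system and its classical targets, 1 was called higher and 1 lower (8% called, near the 6.3% of all tested genes). An unadjusted p under 0.05 was more frequent, at 11 of the 25 against 21.8% of all tested genes. *Bach2*, a transcriptional repressor of the leucine zipper family that includes NRF2, had a mean of 7.14 ± 0.36 (SD, n = 5) in the controls against 9.05 ± 0.09 (SD, n = 4), 3.75-fold higher in KO islets (limma adjusted p = 0.000862), and its other 2 probe sets differed by 1.96 and 0.62. It was the largest difference of the wider lists. *Aox1*, an aldehyde oxidase, was lower (-0.69 ± 0.16 SE, limma adjusted p = 0.0402). *Nfe2l2*, which encodes NRF2, read 10.51 in both groups (0.00 ± 0.12 SE, limma adjusted p = 0.997), and *Keap1*, its inhibitor, differed by 0.10 (limma adjusted p = 0.647).

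Heme and iron genes had 2 of 12 higher and 1 lower (25% called, against 6.3% of all tested genes). *Cp*, the copper oxidase ceruloplasmin, was 2.10-fold higher (1.07 ± 0.16 SE, limma adjusted p = 0.00797), and *Alas1*, the first enzyme of heme synthesis, 1.41-fold higher (0.50 ± 0.11 SE, limma adjusted p = 0.0291). *Tfrc*, the transferrin receptor, was 1.61-fold lower (-0.69 ± 0.11 SE, limma adjusted p = 0.0108), while its other probe sets differed by -0.25 and 0.51. The list of selenoprotein synthesis and other selenoproteins also held *Msra*, *Msrb2* and *Msrb3*, methionine sulfoxide reductases that are not selenoproteins, none of them called. Of its 25 tested genes, 0 were higher and 3 lower (12% called, against 6.3%). These were *Sepsecs*, the last enzyme in making selenocysteine on its tRNA (-0.79 ± 0.10 SE, limma adjusted p = 0.00378), *Selenot* of the endoplasmic reticulum (-0.47 ± 0.09 SE, limma adjusted p = 0.0236) and *Selenoo* of mitochondria (-0.40 ± 0.09 SE, limma adjusted p = 0.0383).

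Among 12 tested genes of oxidative folding in the endoplasmic reticulum, where *Prdx4* acts, 0 were called. The lowest p belonged to *Ero1b*, the oxidase enriched in beta cells and itself on the beta cell marker list (-0.29 ± 0.08 SE, limma adjusted p = 0.0629). *Ero1a* (-0.30, limma adjusted p = 0.0696) and *Pdia4* (0.67, limma adjusted p = 0.0715) came next. Differences were above 0 for 8 of the 12 and below 0 for 4. All KO arrays were above all WT arrays for 2 (7.43% of all tested genes) and below them for 2 (5.05% of all). Among 16 tested peroxisome genes, whose products share the organelle of catalase, 0 were called either, and the lowest p was that of the transporter gene *Abcd3* (-0.21 ± 0.08 SE, limma adjusted p = 0.170). Unadjusted p-values under 0.05 numbered 4 of 12 and 1 of 16 in these lists, against 21.8% of all tested genes.

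Genes of enzymes that make superoxide or hydrogen peroxide, and of their subunits and regulators, had 2 of 11 higher and 1 lower (27.3% called, against 6.3% of all tested genes). *Maob*, a mitochondrial amine oxidase, read 13.01 to 13.22 in WT and 11.93 to 12.10 in KO islets, and was 2.13-fold lower (-1.09 ± 0.08 SE, limma adjusted p = 0.000348). *Cyba*, a subunit of NADPH oxidases, was 1.96-fold higher (0.97 ± 0.14 SE, limma adjusted p = 0.00664), and *Xdh*, xanthine dehydrogenase, 1.87-fold higher (0.90 ± 0.19 SE, limma adjusted p = 0.0289). With the stromal marker mean as a covariate, none of the 19 genes was called, and only 3 of all 13644 genes were. That mean did not overlap between the groups, and the median SE rose to 0.309 from 0.153. The lost calls therefore cannot be read as a result about these genes. The differences then were -0.85 for *Maob*, 1.31 for *Bach2*, 1.04 for *Txnip*, -0.82 for *Gstk1*, 0.64 for *Alas1* and -0.61 for *Glrx5* and *Selenot*. They were 0.57 for *Cyba*, 0.54 for *Cp*, -0.51 for *Sepsecs* and *Gstm2*, -0.50 for *Cbs*, -0.49 for *Aox1* and -0.47 for *Tfrc*. The others were -0.36 for *Selenoo*, 0.35 for *Xdh*, 0.27 for *Gstp1*, -0.24 for *Idh2* and 0.05 for *Mgst1*.

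**Figure D4:**
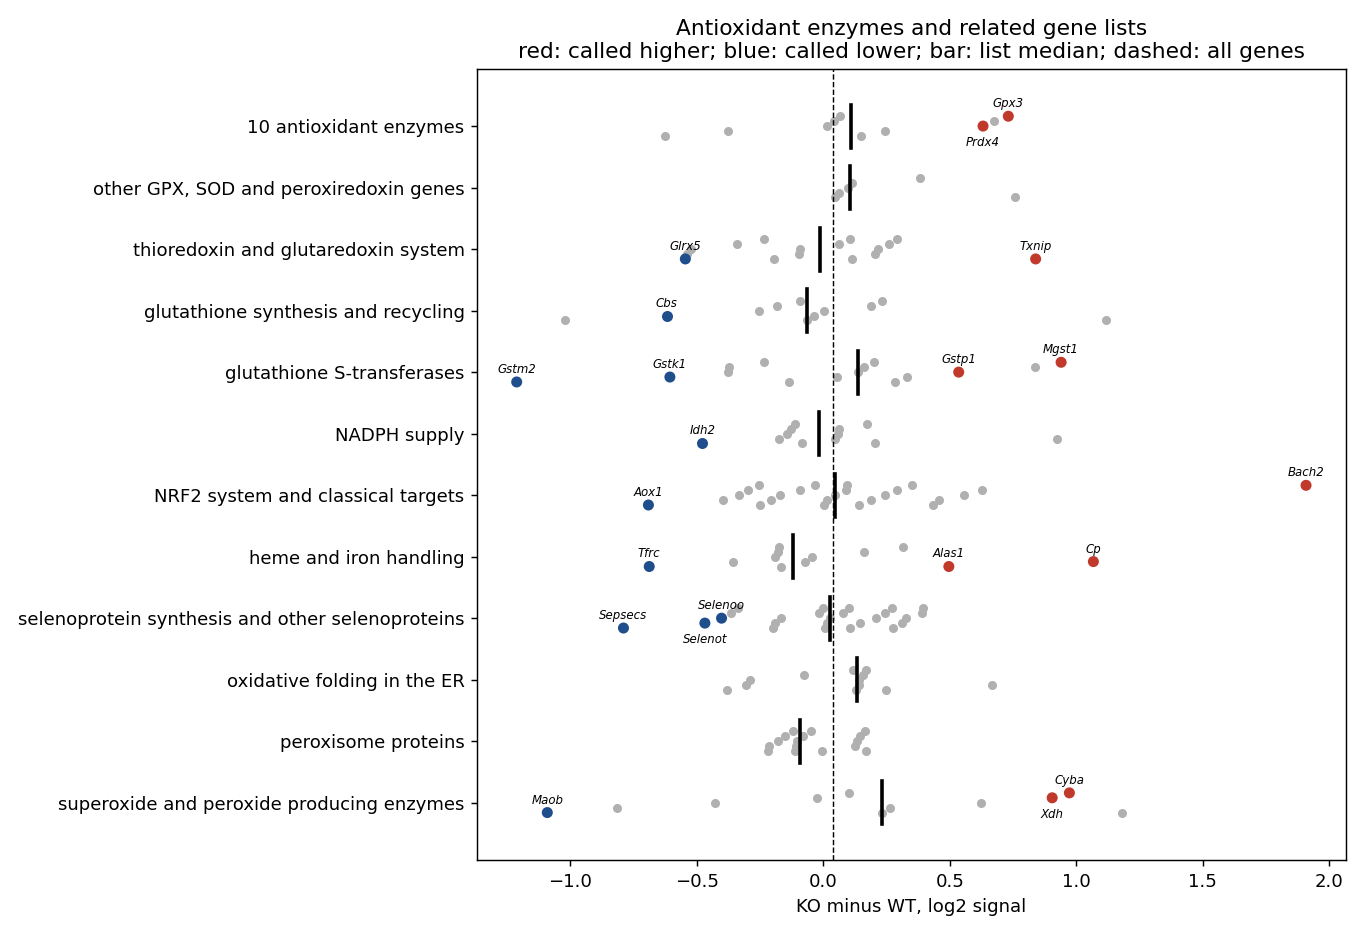
Log2 difference KO minus WT (horizontal axis) of each tested gene of the 10 antioxidant enzymes and of 11 related lists, where red and blue mark genes called higher and lower in KO islets, grey those not called, bars the list medians and the dashed line the median of all tested genes at 0.04. *Bach2* at 1.91 and *Gstm2* at -1.21 are the outermost genes.

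Over the 9 arrays, after the mean of each group was taken off, the signals most like *Gpx3* among 13643 genes were those of *Fgf13* (Pearson r = 0.978), *Ppp1r12a* (0.974) and *Kif5a* (0.967). For *Prdx4* they were *Lrrk2* (0.971), *Fat4* (0.963) and *Rps9* (0.963). The points share RNA pool and scaling, and such values are a description of 9 arrays. *Lrrk2*, a kinase gene, was itself called (0.61, limma adjusted p = 0.0289), and the other 5 were not.

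**Figure D5:**
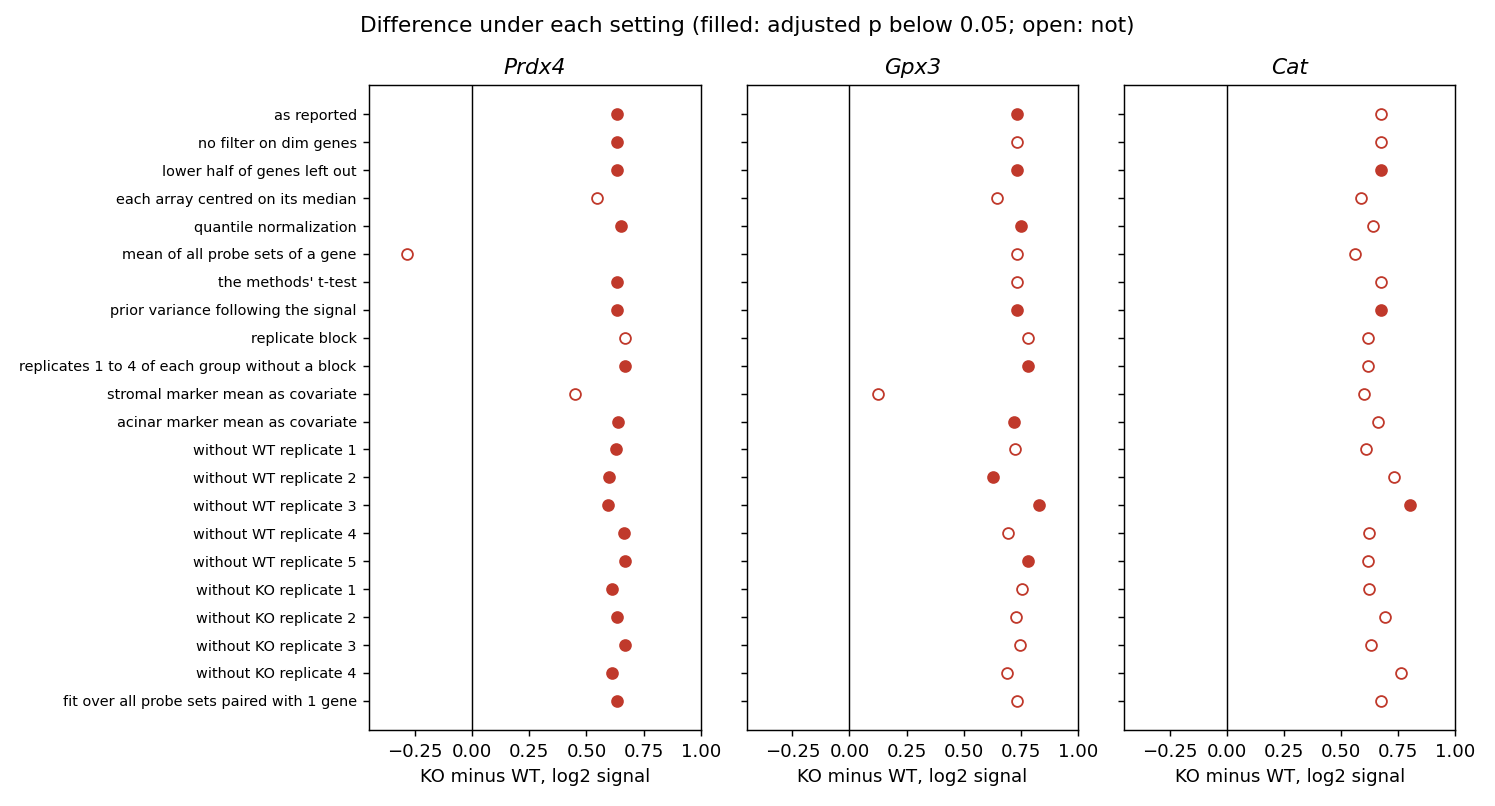
Log2 difference KO minus WT (horizontal axes) of *Prdx4*, *Gpx3* and *Cat* as reported and under each of 21 alternatives, with filled symbols where the adjusted p was below 0.05. *Prdx4* passed in 17, *Gpx3* in 8 and *Cat* in 3 of the 21, and the single difference below 0 was that of *Prdx4* as the mean of all its probe sets (-0.28). Replicates 1 to 4 without a block and the setting without WT replicate 5 are the same fit, so its passes are counted again.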

How the data were processed

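The authors digested pancreas with collagenase, hand-picked and pooled islets, kept RNA above an integrity cutoff and labelled it with a 3′ in vitro transcription kit. They deposited log2 signals, 1 for each of 45037 probe sets and array. Probe summarisation is not given in the sources used here, while the methods name Genespring. The trimmed mean of the linear signal was between 497.1 and 497.7 on every array, so arrays had been scaled alike, and between 43 and 107 values per array were at a floor of 0. Scaling to a common mean makes each difference relative to the other transcripts.

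The platform annotation paired 34945 probe sets with 1 gene, 932 with several and 9160 with none here, and 0 symbols needed an update through RefSeq gene identifiers. A gene was read from its brightest probe set, and the lowest 0.25 of genes by mean was left out. KO and WT were compared with limma 3.58.1 (R 4.3.3, lmFit and eBayes, two-sided, no covariate). Replicates were separate pools, so p-values measure the spread between pools, and the number of arrays limits the precision. In simulated data of 13644 genes limma found 17 of 73 genes changed by 0.58 (log2), 35 of 61 changed by 1.00 and 55 of 66 changed by 2.00, with 1 unchanged gene called. The simulation changed 200 genes and drew noise independently for each gene and array. It held no shift shared by the genes of an array, so its rates need not hold for the data.

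The members, the 11 wider and 10 marker lists and the tests were chosen with earlier results of these data known. Named genes were the members, up to 6 called genes of each wider list by lowest p (or the one with the lowest p), *Rptor*, the 3 genes most like each called member, and markers. *Gclc*, *Gclm*, *Nfe2l2*, *Keap1*, *Prdx2*, *Prdx3*, *Iapp*, *Ins2*, *Dcn* and *Col3a1* were added after their values were seen. So were *Pdgfrb*, *Rgs5*, *Acta2*, *Tagln*, *Cspg4*, *Ero1a*, *Pdia4*, *Ccs*, *Sod3*, *Msra*, *Msrb2* and *Msrb3*. Called genes among other marker lists were 1 of 6 delta, PP and epsilon cell, 1 of 14 macrophage and leukocyte, 1 of 3 red blood cell, 1 of 16 acinar, 1 of 6 ductal and 1 of 6 Schwann and glial markers, all higher, and 0 of 5 alpha cell and 0 of 16 endothelial markers. Of all tested genes, 6.3% were called and 3.67% were called higher. The shares of acinar (6.25%) and of macrophage and leukocyte markers (7.14%) are near that of all genes called. Alternatives covered filter, scaling, probe set choice, unit of the fit, the methods' t-test, prior variance, replicate number, marker covariates and each array left out.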

Additional observations from a re-analysis of the deposited data

How the results depend on the processing

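Beside 860 called genes, 19 wider antioxidant genes and 2 members, the counts were 452, 11 and 1 with no filter on dim genes, 478, 15 and 0 with arrays centred on their median, 317, 7 and 0 with the mean of all probe sets of a gene, and 3, 0 and 0 with the stromal marker mean as a covariate. The probe set fit called 601 probe sets, with 11 wider genes and 1 member among them, and the methods' t-test 717 genes, 20 wider genes and 1 member. Leaving out 1 array gave 372 to 800 genes, 9 to 20 wider genes and 1 to 3 members. The count of genes moved by over 1.5 times without WT replicate 1 (488) or 2 (567) and without KO replicate 1 (372), 2 (458), 3 (425) or 4 (468). The member called in all these single-array fits was *Prdx4*. Quantile normalization, the acinar marker mean as a covariate and replicates 1 to 4 without a block, an alternative chosen after seeing the data, called the 2 members again. The last of these is the same fit as that without WT replicate 5. Leaving out the lower 0.5 of genes (where *Hmox1* and *Nqo1* were not tested) or letting the prior variance follow the signal called *Cat* as well. As a replicate block over replicates 1 to 4, the shared numbers left 61 genes, 3 wider genes and 0 members called (*Prdx4* 0.67 and *Gpx3* 0.78, same sign). Deviations of same-numbered arrays correlated at -0.04, 0.09, 0.12 and -0.03, and KO replicates 1 and 4 correlated best with another number, so the numbers were not taken as pairing. *Gpx4* turned to -0.0432 with median centring and -0.267 with the stromal covariate, and lay between -0.0250 and 0.104 when 1 array was left out. *Sod1* turned to -0.46 with the stromal covariate and *Txnrd1* to -0.0198 with median centring. *Sod2* turned to -0.0715 with median centring, -0.0881 with the mean of all probe sets and -0.464 with the stromal covariate, and lay between -0.0626 and 0.113 when 1 array was left out. *Prdx4* turned to -0.28 with the mean of all probe sets, which takes in its dim probe set. The cause of the other shifts was not tested. The within-array comparisons, also chosen after seeing the data, kept their sign in all fits without 1 array. Dim signals limit what can be read from the 3 probe sets left out by the filter, 1 each of *Sod1*, *Txnrd1* and *Prdx4*.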
